A study of Mus musculus with 7 samples.

Results

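The mRNAs described here encode heterogeneous nuclear ribonucleoproteins (hnRNPs) and their relatives: 22 hnRNPs of the A/B, C, F/H, K, L, M, R/Q and U families counting Raly, the FET proteins Ewsr1 and Taf15, Tardbp, the polypyrimidine tract-binding proteins Ptbp1 and Ptbp2, and the paraspeckle and nuclear matrix proteins Sfpq, Nono, Pspc1 and Matr3. They were taken by gene symbol, and all 31 were found among the 55450 genes of the GENCODE M21 mouse annotation, 21938 of which are protein-coding genes of the nuclear genome. The study sequenced RNA that came down with Ezh2, the catalytic subunit of Polycomb repressive complex 2, from nuclear lysates of untreated mouse embryonic stem cells kept in medium with LIF. Its 7 libraries comprise 5 anti-Ezh2 immunoprecipitations from cells of the strain labelled 129X(M.castaneusX129), 1 anti-Ezh2 immunoprecipitation from Ezh2 null cells of the strain labelled M.musculus, and 1 IgG immunoprecipitation from 129X(M.castaneusX129) cells. The 5 are titled Ezh2 RIP-seq, its technical replicate, its biological replicate, Ezh2 RIP-deeper-seq and Ezh2 RIP-deeper-seq biological replicate. These titles do not say whether the deeper sequencing was of the same libraries. The Ezh2 null and the IgG group are 1 library each, and the Ezh2 null cells differ from the others in strain as well as in Ezh2.

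The values come from 1 deposited table of read sequences and counts, which no header or label ties to a library. Its name carries the abbreviation WT, which was not used to assign it. No library can be set against another here, so no enrichment over the Ezh2 null or the IgG control can be given, and there are no replicates. Levels are therefore the abundance of fragments in that table, and more RNA of a kind, more cells that hold it and better recovery cannot be told apart. Errors are exact 95% intervals that cover counting error only. Copies made by amplification cannot be told from separate molecules, so the intervals are too narrow wherever reads are copies.

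The table held 34072479 reads of 6540936 distinct sequences, of which 31529044 reads were long enough to be searched; 36.1% of those matched a single gene, 11.4% several genes and 52.6% no annotated transcript. Of 10 embryonic stem cell markers, 9 had at least 50 sense reads (range over the list 37 to 66761), and all 5 fibroblast markers did (327 to 5268), although the labels name no feeder cells. Their part in the levels below was not tested.

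hnRNPs coat RNA while it is being transcribed and steer its splicing, 3-prime end formation, export and turnover. Many of them also adjust their own mRNAs and those of their closest relatives, by splicing in or leaving out exons with premature stop codons, by retaining introns, or by acting on the downstream untranslated region. Sfpq, Nono and Pspc1 form dimers with each other and gather on a long noncoding RNA in nuclear bodies called paraspeckles, while FET proteins and Tardbp shuttle between nucleus and cytoplasm and are known from neurodegeneration and, for the FET genes, from sarcoma fusions.

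The sequences below are the RNA around the highest start positions of several of the mRNAs that the results turn on, from the GENCODE M21 transcripts (GRCm38), written 5′ to 3′ on the RNA strand with T for U. Most reads of mRNAs in the table run against the RNA, so a read starts at the right of the printed stretch and goes to the left. Capitals mark the 6 transcript bases that lie under the leading read bases, which were left out before matching, and the start position is the last lower-case base. They show where on each mRNA the reads piled up.
Hnrnpul1, coding sequence, exon 2 of 15 of isoform Hnrnpul1-201: aaatgagtcaagctatgataggagACCACT
Hnrnpm, coding sequence, exon 5 of 17 of isoform Hnrnpm-201: agtcaaggggatgtgctgttgttgAATTCA
Hnrnpul2, coding sequence, exon 10 of 14 of isoform Hnrnpul2-201: gaaggtggtggtagttgttcctaaTGAGGA
Hnrnpa1, downstream untranslated region, exon 11 of 11 of isoform Hnrnpa1-201: acatacagccaggaaacaaagcttAGCAGG
Hnrnpa3, downstream untranslated region, isoform Hnrnpa3-206: attattcaacaggctacagttcttAGCAGG
Hnrnpa3, the same start position on the spliced isoform Hnrnpa3-203: aaaacagaaacggctacagttcttAGCAGG
Hnrnpa2b1, coding sequence, exon 5 of 10 of isoform Hnrnpa2b1-201: caagaaatgcaggaagtccaaagtTCTAGG
Ptbp2, retained intron isoform Ptbp2-205: ctggctagagagaatccagattgaTGGTTG

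Together the 31 mRNAs had 58058 sense reads (95% interval 57587 to 58532), 0.990% (0.982 to 0.998) of the sense reads of nuclear genes. Of the 31, 29 had at least 50 sense reads, beside 29.1% of all nuclear protein-coding genes; Hnrnpa0 with 33 and Raly with 37 reads were below. Per length, the median over all 31 was 2.85 RPKM (sense reads per kb of exonic length for every 1000000 reads searched), beside 0.0856 RPKM over all 21938 nuclear protein-coding genes, many of which had few reads or none. Of 31 annotated genes for other nuclear mRNA-binding proteins, 27 had at least 50 sense reads, with a median of 0.823 RPKM over the 31; Safb, a nuclear matrix RNA-binding protein, had the most with 7150 sense reads, and Raver1 had 0, which allows up to 3 reads. The reads were unequally shared: Hnrnpul1, Hnrnpm, Tardbp, Hnrnpul2 and Hnrnpa2b1 held 68.3% (67.9 to 68.6) of the reads of all 31.

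Hnrnpul1 stood highest per length at 54.3 RPKM (53.4 to 55.2), above every other member. Hnrnpm at 31.1 RPKM (30.4 to 31.8), Hnrnpa1 at 30.8 RPKM (29.7 to 31.9) and Tardbp at 30.02 RPKM (29.3 to 30.7) followed with intervals that overlap from each to the next. Hnrnpul2 at 27.0 RPKM and Hnrnpa2b1 at 17.3 RPKM were each apart from their neighbours, and Hnrnpdl at 11.1 RPKM did not differ from Sfpq, also at 11.1 RPKM. From Ewsr1 at 6.48 RPKM to Hnrnpab at 5.21 RPKM the 5 levels overlapped from each to the next. The same held for Hnrnpd at 3.82 RPKM, Nono at 3.42 RPKM and Hnrnpc at 2.85 RPKM, and for the 7 levels from Hnrnpr at 2.41 RPKM to Matr3 at 1.80 RPKM. At the low end, the 7 levels from Hnrnpf at 0.697 RPKM to Raly at 0.357 RPKM likewise overlapped from each to the next, and Hnrnpll was lowest at 0.171 RPKM (0.132 to 0.219).

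**Figure D1:**
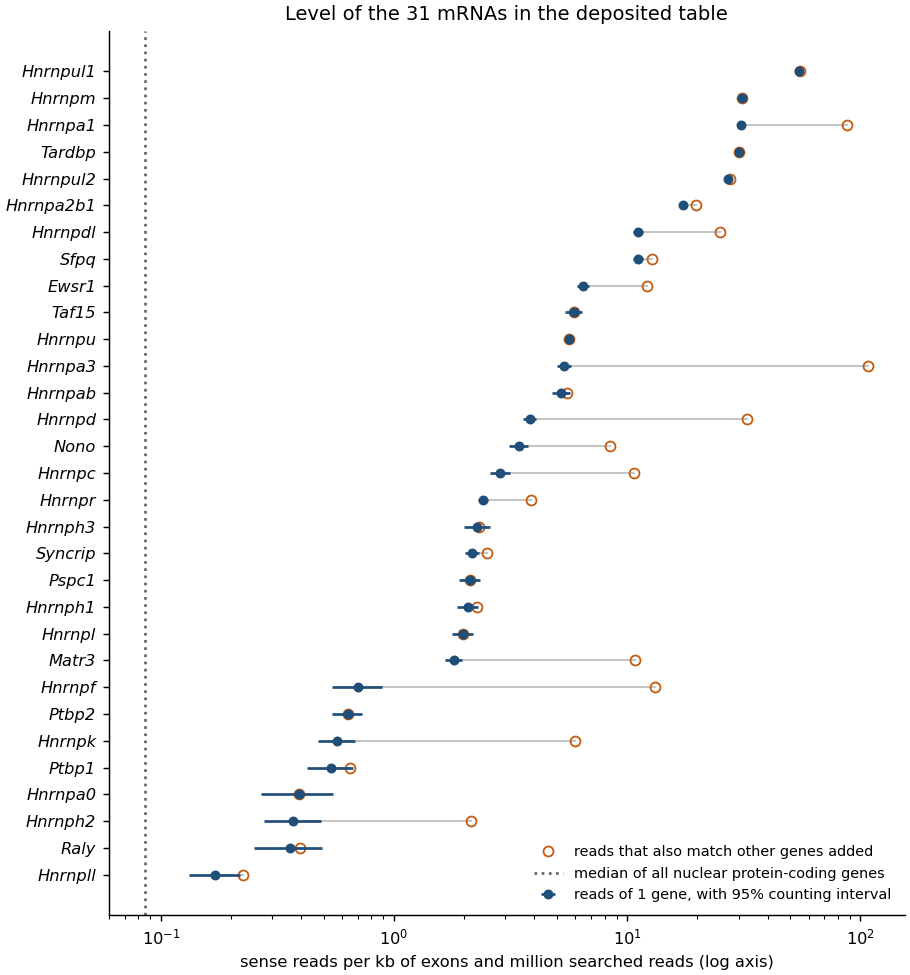
Level of each of the 31 mRNAs on a log axis, in RPKM (sense reads per kb of exonic length for every 1000000 reads searched). Filled points are reads of 1 gene with their exact Poisson 95% intervals, open circles add the reads that also match other genes, and the dotted line is the median of all nuclear protein-coding genes (0.0856 RPKM). Hnrnpul1 is highest by reads of 1 gene (54.3 RPKM), whereas Hnrnpa3 lies at 108 RPKM once shared reads are added.

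The order depends on how reads are counted. By distinct sequences Hnrnpa1 stood at 30.7 RPKM, Hnrnpm at 18.5 RPKM and Tardbp at 17.2 RPKM, and in 36-base reads alone they stood at 18.3, 6.21 and 4.45 RPKM. It depends also on reads that match more than 1 gene. Hnrnpa3, a splicing and mRNA-trafficking factor of the A/B family, had 911 reads of its own and 17495 that also matched another gene, 17487 of them the transcribed processed pseudogene Gm5641 and 8833 of them 10 genes or more. Adding them would put it at 108 RPKM in place of 5.36 RPKM. None of the 34-base windows of its longest coding sequence was specific to it, so that its coding sequence had 0 reads by construction. Hnrnpa1, the classical repressor of splice sites, likewise had 3062 reads of its own and 5639 shared ones, of which 5634 also matched the processed pseudogene Gm10052, and 18.5% of its coding windows were specific.

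The same limit applied to several other members, low ones among them. Hnrnph2 had 51 reads of its own and 244 shared ones, which would put it at 2.14 RPKM in place of 0.370 RPKM. Hnrnpf, a G-tract-binding splicing factor, had 67 reads of its own and 1195 shared ones, with 3.77% of coding windows specific. Hnrnpk, a C-rich-RNA- and DNA-binding protein, had 116 of its own and 1100 shared ones, of which 1095 also matched Gm7964. Hnrnpc, which packages nascent transcripts and masks U-rich tracts, had 388 and 1062, and Hnrnpdl 1692 and 2094, nearly all of the shared ones with Gm11488 (2093 reads). In Hnrnpd, an AU-rich-element-binding decay factor, 6607 of 6660 shared reads matched 10 genes or more and all but 2 of the shared reads lay in the downstream untranslated region. In Matr3 2744 of 2891 shared reads matched 10 genes or more. Taf15, Pspc1 and Hnrnpa0 had no shared reads, and Hnrnpu, Hnrnpm, Tardbp and Ptbp2 had 5 or fewer, so that their levels hardly move.

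Among the U family, which binds RNA and scaffold-attached DNA, Hnrnpul1 had 14819 sense reads (14581 to 15060). Of these, 4278, or 28.9% (28.1 to 29.6), began at 1 base of its coding sequence, chr7:25750906, in the stretch shown above. Start positions at most 5 bases apart, joined into 1 run of 78 bases around it, held 65.9% of its reads at 62 positions. The pile was made of 177 distinct sequences, 435 reads of 36 bases and 3843 of 40 bases. Hnrnpul2 had 6048 sense reads (5897 to 6202), of which 2179, or 36.03% (34.8 to 37.3), began at chr19:8826726, and a run of 52 bases held 87.6% of its reads at 37 positions. Hnrnpu itself, the abundant scaffold attachment factor, had 2058 sense reads spread over 245 positions, with 3.06% (2.36 to 3.90) at the highest one and 27 positions needed to hold 50% of its reads. By such runs Hnrnpul2 was the most concentrated of the 29 mRNAs with at least 50 sense reads and Hnrnpu, with 9.82%, the least. The longest stretch of letters that the highest 3 sites of Hnrnpul1 and Hnrnpul2 had in common was 6 bases.

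Hnrnpm, a splicing regulator that binds GU-rich RNA, had 7796 sense reads (7624 to 7971). Of these, 3046, or 39.1% (38.0 to 40.2), began at chr17:33669071 in exon 5, and a run of 14 bases held 55.7%. Its coding sequence took 96.0% of the reads. Of its other reads, 189 began at 1 position and had their best placements only on noncoding isoforms. Hnrnpr, whose reads are 95.6% coding, had a milder pile with 12.9% (11.3 to 14.6) at its highest position and 40.8% in a run of 34 bases. Across the 29 mRNAs with at least 50 sense reads, 8 had more than 20% of their reads at 1 position with the interval clear of 20%, beside 34.1% of nuclear protein-coding genes with at least 50 sense reads. They were Hnrnpul1, Hnrnpm, Hnrnpul2, Tardbp, Hnrnpa1, Ptbp2, Hnrnpll and Hnrnph2. With each distinct sequence counted once, the share was 8.02% in Hnrnpul1, 15.9% in Hnrnpm, 11.9% in Tardbp and 11.1% in Hnrnpll, below 20%, and 21.4% to 30.8% in the other 4. In 36-base reads alone it was 13.5% in Hnrnpul1, 16.8% in Hnrnpm and 15.2% in Tardbp. The limit of 20% was chosen after the data had been seen.

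**Figure D2:**
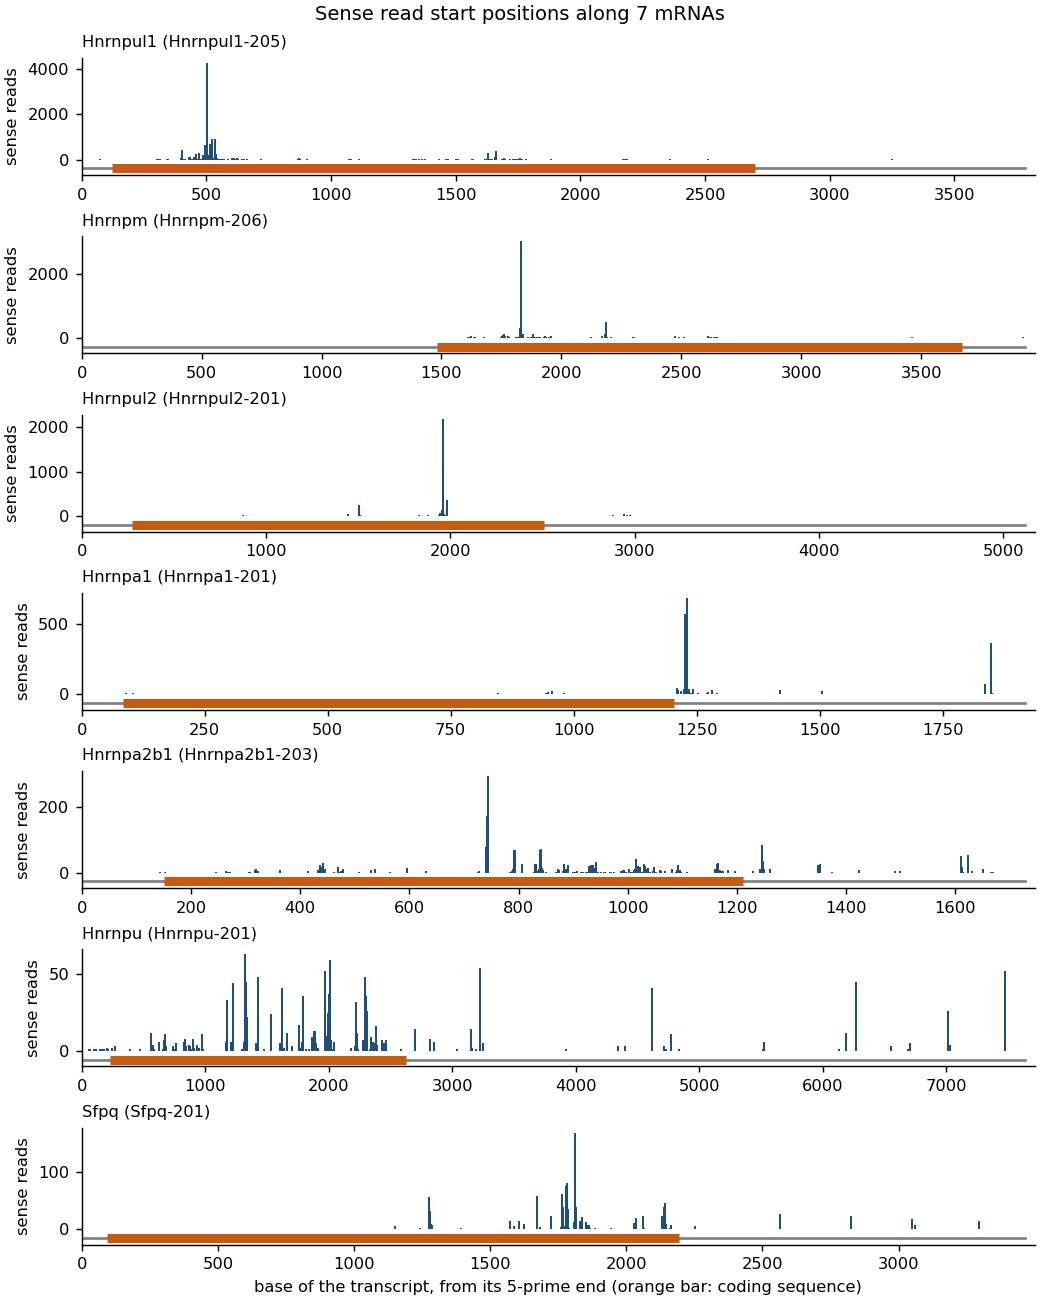
Number of sense reads that begin at each base along the longest coding transcript of 7 mRNAs, with the coding sequence as an orange bar under each panel. Reads that also match other genes are not drawn. Hnrnpul1, Hnrnpm and Hnrnpul2 have their highest pile inside the coding sequence (4278, 3046 and 2179 reads) with lower ones beside it. Hnrnpa1 has its pile of specific reads just after the stop codon. The coding reads of Hnrnpu and Hnrnpa2b1 begin at many positions, but only 0.401% and 2.18% of them in the first 200 coding bases (8.32% and 18.8% of the coding length).

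**Figure D3:**
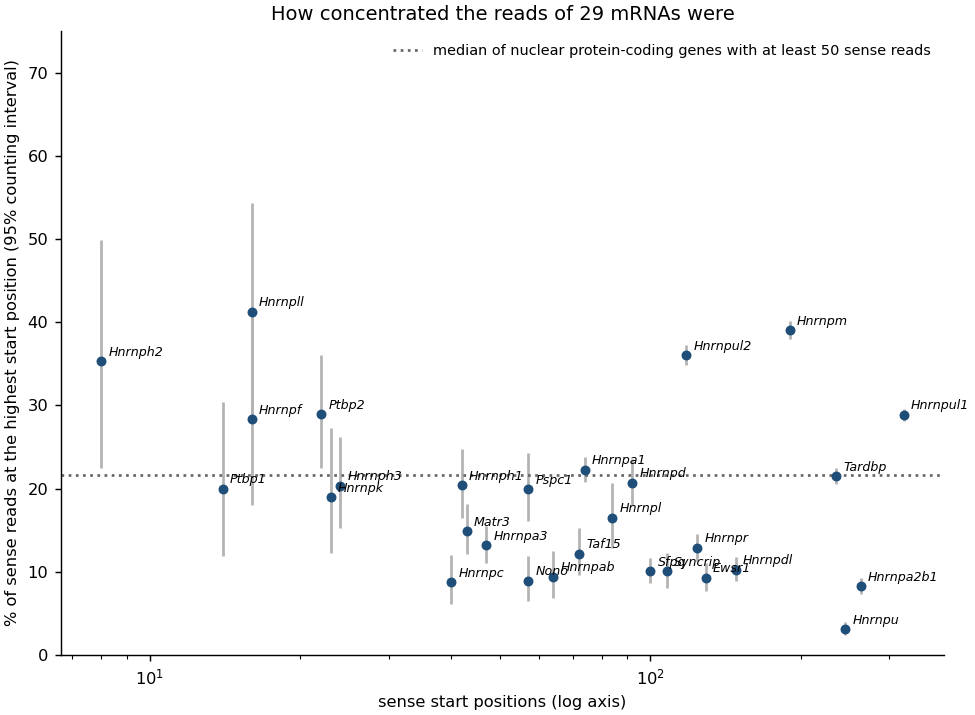
Share of sense reads at the highest start position, with exact 95% intervals, against the number of sense start positions on a log axis, for the 29 mRNAs with at least 50 sense reads. The dotted line is the median of nuclear protein-coding genes with at least 50 sense reads (21.6%). Hnrnpm, Hnrnpul2 and Hnrnpul1 lie above it in spite of 118 to 321 positions, and Hnrnpu is lowest at 3.06%.

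Tardbp encodes a UG-rich-RNA-binding protein known to limit its own mRNA through the downstream untranslated region. Of its 7379 sense reads (7212 to 7549), 93.5% (92.9 to 94.0) lay in that region, where 80.7% of its specific windows lie. Coding sequence held 6.19% of the reads, and 85.7% of its coding windows were specific. Its highest start position held 21.5% (20.6 to 22.4) of its reads. Only 8 antisense reads fell on Tardbp, 0.108% (0.0468 to 0.213) of its reads.

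Hnrnpa1 had 90.3% (89.2 to 91.4) of its reads in the downstream untranslated region, where 72.0% of its specific windows lie. Among its 3062 reads of 1 gene, the highest positions were 26 and 23 bases after the stop codon with 682 and 565 reads. Bases 11 to 40 after it held 70.9% (69.3 to 72.5) of these reads. Of its 5639 shared reads, 5636 lay in coding sequence, with up to 1283 at 1 position, and 0 lay in that window. The pile after the stop codon is therefore that of specific reads alone. Hnrnpa3 had its highest position, with 120 reads, 27 bases after the stop codon of Hnrnpa3-203, and 68 reads 24 bases after it. Its second highest position, with 73 reads, lay 719 bases after the stop codon. The reads at 27 and 24 bases carried the letters of isoform Hnrnpa3-206, whose sequence to the left of the site differs from that of the spliced Hnrnpa3-203. On Hnrnpa3-206 the same positions lay 123 and 120 bases after its own stop codon. Of the reads shared with other genes, 5473, or 31.3% (30.6 to 32.0), were placed in the same window of bases 11 to 40 on Hnrnpa3, at most 1250 at a base, and these cannot be told from reads of the pseudogene.

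The sites of Hnrnpa1 and Hnrnpa3 printed above share their last 9 letters, CTTAGCAGG, the longest stretch among the highest 3 sites of 19 pairs of related members (5 to 9 letters). These letters stand at bases 24 to 32 after the stop codon of Hnrnpa1-201 and at bases 25 to 33 after that of Hnrnpa3-203. In the 60 bases after the stop codon they occurred on the sense strand in 4 of 20520 genes with a region that long. These were Hnrnpa1 and Hnrnpa3, from which the letters were taken, and Thap3 and Gm6793. The letters did not occur there in Hnrnpa2b1 or Hnrnpa0. Because the letters came from 2 of the genes counted, the count does not test whether the sharing is unusual. The last 6 letters lie under the leading read bases that were left out before matching. All 6 matched the transcript in 198 of 682 reads at the Hnrnpa1 site and in 13 of 120 at the Hnrnpa3 site. The pair was singled out after its sites had been seen, and a shared stretch is a description, not a binding site.

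Over the 29 mRNAs with at least 50 sense reads, the downstream untranslated region held more than 50% of the reads with the interval above 50% in 5 (Hnrnpa3, Tardbp, Hnrnph2, Hnrnpa1 and Hnrnpk), beside 23.1% of nuclear protein-coding genes with at least 50 sense reads. In Hnrnpa3, Hnrnpa1, Hnrnpk and Hnrnph2, between 0% and 33.5% of coding windows were specific, so reads of their coding sequence were mostly given to several genes. Hnrnph2 had 92.2% (81.1 to 97.8) of 51 reads there and Hnrnpk 80.2% (71.8 to 87.0) of 116. Tardbp was the one of the 5 whose coding sequence was mostly specific. The downstream region held 16.1% of the specific windows of the longest coding transcript in Hnrnph2. It held 71.3% in Hnrnpk, 72.0% in Hnrnpa1, 80.7% in Tardbp and 99.9% in Hnrnpa3. The coding sequence held more than 50% in 19 of the 29, beside 52.8%. Pooled over the 31 mRNAs, 23.8% of sense reads lay in the downstream untranslated region and 72.1% in coding sequence, beside 14.6% and 79.1% over all nuclear protein-coding genes. Tardbp supplied 6897 of the 13805 pooled reads of the downstream region and Hnrnpa1 2766.

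Members of 1 family differed here. Hnrnpab had 92.6% of its 457 reads in coding sequence and Hnrnpdl 84.0% of 1692, while their relative Hnrnpa0 had 30 of 33 reads in the downstream region. Those of Hnrnpa0 were piles of 19, 6 and 5 reads at single start positions, which may be copies. Hnrnph1 and Hnrnph3, which bind G-rich splicing enhancers and silencers, had 80.1% of 382 and 97.8% of 226 reads in coding sequence. Hnrnpf and Hnrnph2 had none there, with 3.77% and 33.5% of their coding windows specific. Hnrnpl, a CA-repeat-binding splicing regulator, had 69.7% of its 277 coding reads within 200 bases of the start codon, which make up 11.4% of the coding sequence. Of the reads of Hnrnpl of 36 or 40 bases, 61.0% were of 36 bases, beside 11.7% over the 31 mRNAs and 11.2% over all nuclear protein-coding genes. In Hnrnpc, 147 of the 148 reads that began after the stop codon did so within 200 bases of it. In Hnrnpf, Syncrip and Hnrnpc, 38.8%, 20.9% and 18.8% of reads lay in the upstream untranslated region, which makes up 38.8%, 5.66% and 33.1% of their exonic length, beside read shares of 0.722% over the 31 and 1.39% over all nuclear protein-coding genes.

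**Figure D4:**
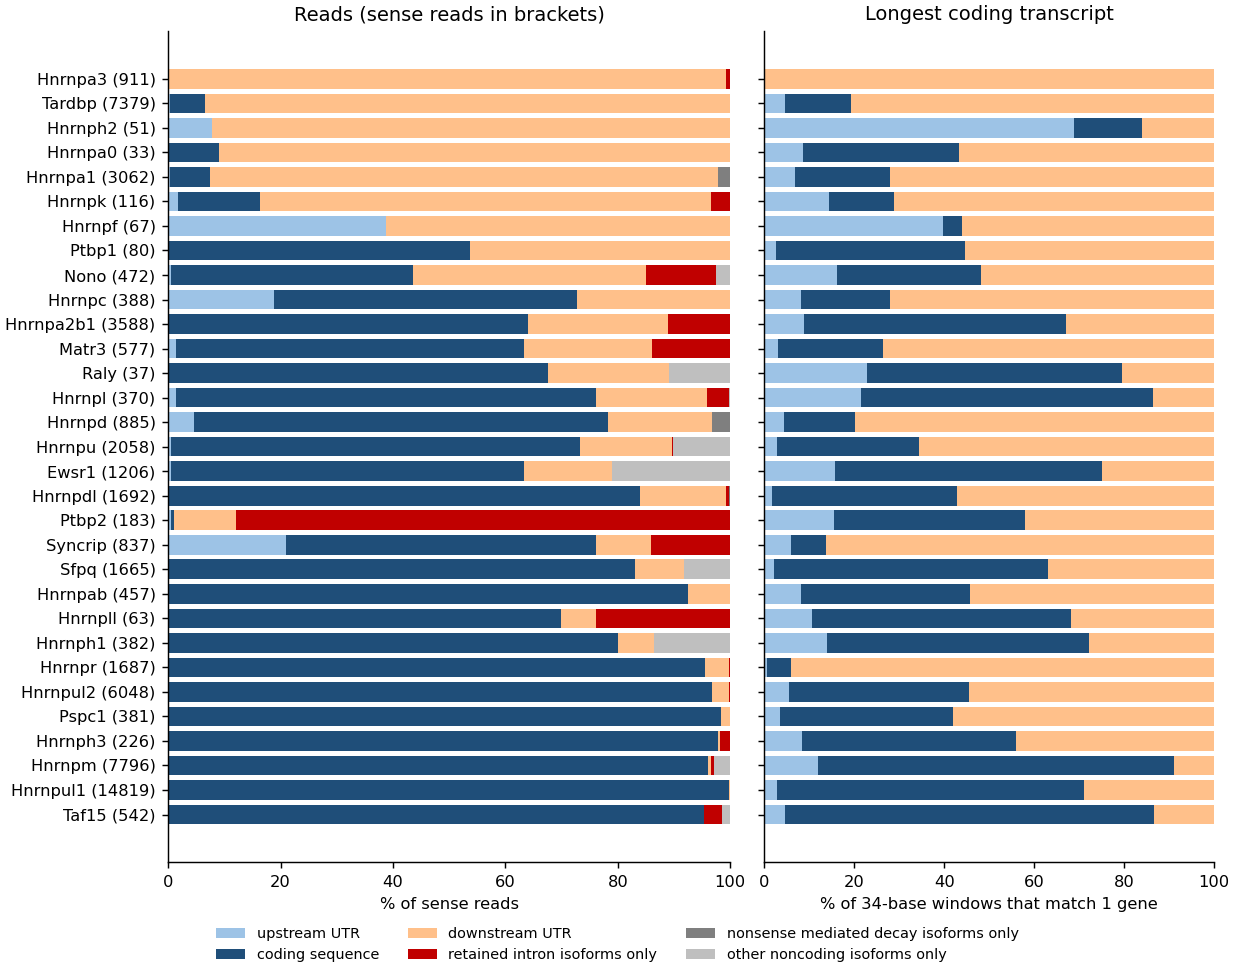
Left, share of each mRNA's sense reads by region (sense reads in brackets), ordered by the share in the downstream untranslated region. Right, share of the 34-base windows of the longest coding transcript that match 1 gene, by region. Tardbp has 93.5% of its reads and 80.7% of its specific windows in the downstream region, Hnrnpa3 has 99.3% and 99.9%, and Ptbp2 stands out for reads found only on a retained intron isoform (88.0%).

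Reads found only on isoforms of the retained intron class made up 956 of the 58058 reads, 1.65% (1.55 to 1.75), beside 3.46% over all nuclear protein-coding genes. Introns outside annotated isoforms could not be searched. The share was above 10% with the interval clear of 10% in 5 of the 29 mRNAs, beside 14.8% of nuclear protein-coding genes with at least 50 sense reads; the limit of 10% was chosen after the data had been seen.

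Ptbp2, the neural relative of the splicing repressor Ptbp1, had 161 of its 183 reads, 88.0% (82.4 to 92.3), only on Ptbp2-205, a single-exon retained intron transcript of 4047 bases, at 18 start positions. The retained intron class makes up 44.2% of its exonic length. A single read lay in its coding sequence, and 20 lay in the downstream untranslated region. The highest position, chr3:119739318 in the stretch printed above, held 53 reads. Ptbp1 itself, which holds Ptbp2 protein low outside neurons by splicing, had 80 reads at 14 positions and none on retained intron isoforms.

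Hnrnpa2b1, a splicing and mRNA-transport factor, had 395 of 3588 reads, 11.01% (10 to 12.1), on such isoforms, 239 of them on Hnrnpa2b1-213 at 33 positions. Over all classes its reads covered 263 positions, with 8.25% at the highest one. Syncrip, a cytoplasmic and nuclear relative of Hnrnpr, had 118 of 837 reads, 14.1% (11.8 to 16.6), on Syncrip-212 at 12 positions. Matr3, a nuclear matrix protein that binds RNA and DNA, had 80 of 577 reads, 13.9% (11.1 to 16.96), on them, and Hnrnpll, a splicing factor best known from lymphocytes, had 15 of 63, 23.8% (14.0 to 36.2), of which 14 lay at 1 position. In Nono the share was 12.5% (9.65 to 15.8), with an interval that reaches below 10%. These shares sit beside retained intron lengths of 15.3% to 72.6% of the exonic bases of the 5 mRNAs above 10%. Ptbp2 alone had a read share above its share of length. The read share was below the length share in Hnrnpa2b1 (63.0% of exonic bases), Hnrnpll (72.6%) and Matr3 (31.7%). In Syncrip (15.3%) the length share lay within the interval of the read share.

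Noncoding isoforms of other or mixed classes held 1.55% of the reads of the 31 mRNAs, beside 1.24% over all nuclear protein-coding genes. Ewsr1, a FET protein that couples transcription to splicing, had 21.1% of 1206 reads only on them, 234 on Ewsr1-208. Hnrnph1 had 13.6% there and Hnrnpu 10.2%. Reads only on nonsense mediated decay isoforms were 98 in all, 67 of them on Hnrnpa1-204 and 28 on Hnrnpd-205 at 1 position. Taf15, the other FET protein, had 542 reads at 72 positions, with 95.4% in coding sequence and none in the downstream untranslated region (95% interval up to 0.678%). At 5.89 RPKM (5.40 to 6.41) it overlapped Ewsr1 at 6.48 RPKM (6.12 to 6.85), but 1068 further reads of Ewsr1 matched other genes as well, against none of Taf15. The overlap did not hold under other counting: Taf15 had 5.89 RPKM and Ewsr1 2.77 RPKM with no other gene within 1 further mismatch. By distinct sequences they had 8.55 and 13.4 RPKM, and in 36-base reads alone 2.41 and 8.88 RPKM.

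The paraspeckle mRNAs were also unlike each other. Sfpq, a transcription and splicing factor, had 1665 reads (1586 to 1747) at 100 positions, with 83.0% in coding sequence and 8.23% on other noncoding isoforms. Pspc1 had 381 reads (344 to 421), of which 98.4% lay in coding sequence and 3 further reads were antisense. Nono had 472 sense reads (430 to 517) at 57 positions, 43.2% in coding sequence and 41.3% in the downstream region, and 36.4% of its coding windows were specific. The sense level was highest for Sfpq at 11.1 RPKM, followed by Nono at 3.42 RPKM (3.12 to 3.75), Pspc1 at 2.11 RPKM (1.90 to 2.33) and Matr3 at 1.80 RPKM (1.66 to 1.96), and the last 2 intervals overlap.

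Nono had the highest antisense share of the 31. It had 4374 antisense reads, 90.3% (89.4 to 91.1) of its reads, although no annotated gene lies opposite it. Of these, 3027 began at 1 base of exon 7, chrX:101443450, and a run of 10 bases held 3737. The antisense RNA letters there, with the capitals as above, were as follows, shown because this was the highest antisense pile of the 31 mRNAs.
Nono, antisense strand, opposite coding sequence in exon 7 of 12: cctggtgctcatgacgtgcagcctCCATCT
Of the antisense reads of Nono, 3305, or 75.6%, matched with 2 mismatches and 18.3% with none. Over all nuclear protein-coding genes 73.9% of antisense reads matched with none. None of the 3027 reads at the highest position matched the transcript in all 6 leading bases. This was not particular to Nono: none of the 270 reads at the highest antisense position of Syncrip did either. Without the highest position the antisense share of Nono was 74.1% (72.0 to 76.1), with mismatches disallowed it was 67.9%, and counting each start position once it was 48.6% (39.1 to 58.3).

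Pooled over the 31 mRNAs, 12.0% (11.8 to 12.3) of 65985 reads were antisense, beside 12.5% over all nuclear protein-coding genes. By start positions the shares were 13.8% (12.7 to 15.0) and 23.0% (22.8 to 23.1). Nono supplied 4374 of the 7927 antisense reads of the 31. The antisense share was above 50% with the interval clear of it in 2 of the 30 mRNAs with at least 50 reads of both strands, beside 15.7% of nuclear genes with at least 50 reads. The other was Raly, a relative of Hnrnpc with 79 antisense and 37 sense reads, 68.1% (58.8 to 76.4) antisense and 45.5% (28.1 to 63.7) by start positions.

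Syncrip came next at 41.6% (39.0 to 44.2). Of its 596 antisense reads, 270 began at 1 base and 560 in a run of 14 bases, and by start positions its share was 11.5%. Hnrnpab followed with 33.6%, where 231 antisense reads lay at 24 positions and Phykpl lies on the other strand. Reads that matched an annotated transcript of Phykpl equally well in sense were counted for Phykpl and are not among them. Hnrnpul1 had 709 antisense reads, the second most, at 98 positions, but these were 4.57% of its reads. At the low end were Tardbp, Ptbp2, Hnrnpa3, Pspc1 and Hnrnpul2, each below 1%, and Hnrnph2 with 0 antisense reads (95% interval up to 6.98%).

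**Figure D5:**
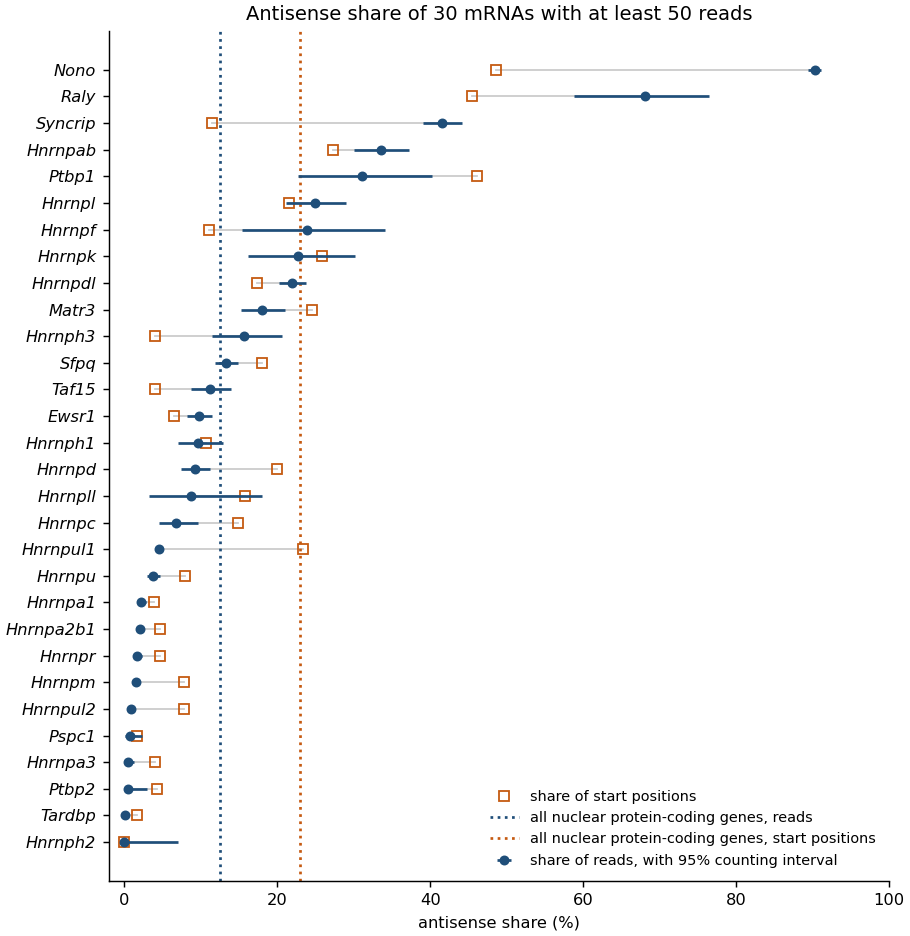
Antisense share of the 30 mRNAs with at least 50 reads of both strands. Filled points give the share of reads with exact 95% intervals, open squares the share of start positions, and dotted lines the shares over all nuclear protein-coding genes (12.5% of reads, 23.0% of start positions). Nono (90.3%) and Raly (68.1%) lie above 50% by reads and below it by start positions.

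The table mixes reads of 36 and 40 bases, which no label assigns to a library, so the members were also set against the mix. Of the 23 mRNAs with at least 200 reads of these lengths, the ratio of 36-base to 40-base reads was more than 2-fold below that of all nuclear protein-coding genes in 5 (Tardbp, Hnrnpa3, Hnrnpm, Hnrnpc and Matr3), beside 18.4% of such genes, and more than 2-fold above it in 3 (Hnrnpl, Ewsr1 and Hnrnpul1), beside 14.6%. Tardbp had 217 reads of 36 bases and 7118 of 40 bases, and Hnrnpul1 3229 and 11363. In the 36-base reads alone the 5 mRNAs with most reads were Hnrnpul1, Hnrnpul2, Hnrnpa1, Ewsr1 and Hnrnpm, 3 of which are among the 5 with most reads in the whole table.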

How the data were processed

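The authors' deposited counts are read counts of distinct sequences, not scaled to depth. No aligner is named in the labels; the build mm9 is named per the submitters' processing notes, while coordinates here are those of GRCm38. The table was treated as 1 pool, with no test between groups. Members and lists were chosen with earlier results of these data known.

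After 6 leading bases were dropped, reads of at least 26 bases were matched to GENCODE M21 transcripts with bwa 0.7.19 (up to 2 mismatches, no gaps, up to 1000 placements). Reads whose best placements fell on 1 gene were counted for it, sense placements first where genes overlap on opposite strands. A read counted as coding if its middle base was coding in any coding isoform. A window was called specific when all its best placements lay on 1 gene. RPKM was computed from the counts (sense strand) per kb of exonic length for every 1000000 reads searched. Poisson and Clopper-Pearson 95% intervals came from scipy 1.17.1, and a count of 0 was given a limit of 3 counts. The assignment was tested on reads simulated from the longest coding transcript of each member. That test cannot show how often reads from elsewhere are given to a member. Named in full were the 8 members with most sense reads, the 5 lowest, FET and paraspeckle members, Tardbp, Ptbp1, Ptbp2, members with an antisense share above 50%, and the 5 highest by downstream untranslated and by retained intron share. Alternatives counted distinct sequences or start positions once, allowed no mismatch, took other lengths, minima or gene lengths, added shared reads, joined positions or left out the highest. The start site of 1 mRNA is not reported here.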

Additional observations from a re-analysis of the deposited data

How the results depend on the processing

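No paired analysis was possible because the 1 table carries no library or replicate number. The median level of the 31 mRNAs (2.85 RPKM) moved to 3.92 with each distinct sequence counted once, 2.27 with no other gene within 1 further mismatch, 1.83 in 36-base and 3.15 in 40-base reads alone, 5.97 with shared reads added and 4.38 per kb of the longest coding transcript; by start positions it was 9.94 per kb. Of the 31, 16 had at least 50 sense reads in 36-base reads alone. The pooled antisense share was 9.80% by distinct sequences, 6.67% without mismatches, 11.5% with no other gene within 1 further mismatch, 12.3% in 36-base reads and 13.8% by start positions. Mostly antisense mRNAs numbered 1 by distinct sequences, in 36-base reads alone and with a minimum of 200 reads, and 0 by start positions. The median share at the highest position (19.0%) became 9.64% by distinct sequences and 34.9% with positions within 5 bases joined. The pooled downstream untranslated share was 18.5% by distinct sequences, 24.2% without mismatches, 25.5% with no other gene within 1 further mismatch, 10.3% in 36-base reads, 25.6% in 40-base reads, 19.6% by start positions and 25.2% without the highest position. The retained intron share was 2.16%, 1.77%, 0.834%, 1.78%, 4.57% and 2.04% by distinct sequences, with no other gene within 1 further mismatch, in 36-base reads, in 40-base reads, by start positions and without the highest position. Single values of 3 mRNAs crossed 50%: the antisense share by start positions in Nono (48.6%) and Raly (45.5%), that in 36-base reads in Raly (45.8%) and Ptbp1 (57.1%), and the downstream untranslated share of Nono with no other gene within 1 further mismatch (57.2%). Of the other single-member values, 205 antisense, 231 downstream and 208 retained intron values kept their side or size. Losing their side of the threshold were 8 antisense and 10 downstream values, 6 downstream values gained it, and 40 retained intron values moved. The cause of these moves was not tested. Depth limits Hnrnpa0, Raly, Hnrnph2, Hnrnpll and Hnrnpf, with 33 to 67 sense reads each.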
